A study of Mus musculus with 10 samples.

Results

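The genes described here encode collagens, laminins and the glycoproteins, proteoglycans and crosslinking enzyme of the extracellular matrix, read in cultured mouse myotubes. Every probe whose annotated symbol names a collagen chain or a laminin chain was taken, together with the probes of 16 named matrix genes where the annotation holds them (Fn1, Fbn1, Fbn2, Postn, Sparc, Dcn, Bgn, Lum, Lox, Thbs1, Thbs2, Mfap4, Mfap5, Nid1, Nid2 and Tnc). This gave 142 of the 45281 probes on the array, from 64 of the 19057 genes with a symbol. Of these, 69 probes from 46 genes passed the filter on dim probes, a detection p under 0.05 on at least 2 arrays. The other 18 genes, among them Col15a1, Col14a1, Lama4 and Lum, did not pass it and have no value here. Col6a3, Col12a1, Fbn1, Fbn2 and Lama3 were not analysed here.

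All cultures were IM2 mouse muscle cells, seeded as myoblasts to confluence, kept under fusion conditions for 4 days and left untreated, and all carried a PABPN1-FLAG construct. PABPN1 binds poly(A) tails in the nucleus, and an expanded alanine tract in it causes oculopharyngeal muscular dystrophy. The 3 WTD arrays came from myotubes whose wild type PABPN1-FLAG is labelled as low, the 3 D7E arrays from myotubes with mutant PABPN1-FLAG at a level that the labels call similar to WTA, and the 2 WTA arrays from myotubes with wild type PABPN1-FLAG. The sources used here do not give the promoter of the constructs, the number of clones behind each culture or whether replicates were separate cultures. The p-values therefore cover only array-to-array spread, which may be technical. Cells without the construct were not analysed here.

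Muscle fibres are wrapped in a basement membrane, a sheet in which networks of type IV collagen and of laminin are joined by nidogens, and which is embedded in a looser matrix of fibrillar and beaded filament collagens. In muscle the fibrillar and type VI collagens come largely from fibroblasts, while muscle cells in culture make basement membrane components and a share of the interstitial matrix themselves. Loss of the laminin chain encoded by Lama2 or of type VI collagen causes congenital muscular dystrophy.

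The arrays detected 13653 (WTD replicate 2) to 17565 (WTD replicate 3) probes each. On WTD replicates 1 and 3 the detection p was estimated from background probes. On every other array such an estimate detected more probes than the deposited values, as with 14782 against 13653 on WTD replicate 2. Counts of WTD arrays above background may therefore run high beside those of D7E and WTA. Before normalization the 95th percentile of the signal over its median was 4.84, 3.20 and 8.37 on WTD replicates 1, 2 and 3. It was 5.09 to 8.21 on the D7E and WTA arrays. The WTD signals were deposited in another row order than their probe IDs and were put back in order through the WTA signals beside them, so that every WTD value rests on that step. The single probe of Pabpn1, the gene that the design manipulates, read 10.12, 10.15 and 9.76 on the WTD arrays, 9.05, 9.47 and 10.47 on the D7E arrays and 9.13 and 9.07 on the WTA arrays (normalized log2 intensity). It was thus higher on every array labelled WTD than on the WTA arrays, although the label gives WTD as the low-level group, and the difference did not pass the test (log2 0.91 ± 0.31 (SE), adjusted p = 0.194). The sources do not say whether this probe detects the construct's RNA, and WTD below stands for the arrays labelled WTD. All 16 measured myotube markers, such as Acta1 and Myog, were above background on every group's arrays and none was called in a comparison. Of 11 fibroblast markers 4 passed the filter (Pdgfra, Pdgfrl, Dpt and Pi16), while Thy1, Fap, Dpp4, Osr1, Clec3b, Tcf21 and Cd34 did not. The log2 of the summed intensities of the 11 ranged from 8.04 to 8.21 in WTD, from 8.10 to 8.30 in D7E and from 8.14 to 8.24 in WTA. This sum includes the 7 genes not past the filter, so it cannot show the share of fibroblasts. Among the 4 measured, Dpt was above background on no WTD array, 1 D7E array and both WTA arrays, and read 4.24 to 4.33 in WTD, 4.17, 4.17 and 4.96 in D7E and 4.82 and 5.01 in WTA (log2 -0.62 ± 0.23 in WTD over WTA, adjusted p = 0.222). Of 8 endothelial markers 5 passed (Eng, Kdr, Vwf, Tek and Emcn), with Eng above background on all 8 arrays, and Pecam1, Cdh5 and Tie1 did not. Of 7 leukocyte markers 3 passed (Lyz1, Csf1r and Lyz2), and Ptprc, Adgre1, Itgam and Fcgr1 did not. Of 9 smooth muscle and pericyte markers 7 passed (Acta2, Smtn, Notch3, Mcam, Pdgfrb, Cspg4 and Rgs5), 6 of them above 0 in WTD over WTA, and Myh11 and Cnn1 did not. Mcam read 0.63 ± 0.18 in WTD over WTA (adjusted p = 0.112), and Rgs5 was above background on all WTD and D7E arrays and on no WTA array. The log2 of the summed intensities of the pericyte list ranged from 14.73 to 14.92 in WTD, from 14.64 to 14.73 in D7E and from 14.56 to 14.81 in WTA. Acta2 alone read 14.58 to 14.74 in WTD, 14.465 to 14.58 in D7E and 14.63 and 14.405 in WTA. The sum thus mostly reflects Acta2 and cannot show the share of pericytes. None of the markers was called in a comparison. In such bulk RNA fewer cells of a type and less RNA per cell cannot be told apart.

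Levels are given as log2 intensities after background correction and quantile normalization of all 8 arrays together, each gene on its brightest probe past the filter. Differences are log2 changes with their standard error, tested with limma over 18815 probes, and a call is an adjusted p under 0.05. The levels of different genes cannot be compared, because each probe has its own brightness.

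Arrays labelled WTD differed from WTA arrays in few matrix genes. Col4a2 and Col26a1 rose in WTD, Thbs2 fell, and 1 dim probe of Tnc rose. These are 4 of the 69 member probes (5.8%), 3 higher and 1 lower. Of all probes 1.58% were called in this comparison, 0.893% as higher and 0.691% as lower. An unadjusted p under 0.05 was reached by 21 of 69 member probes (30.4%) and by 2656 of 18815 probes in all (14.1%). The median log2 change was 0.00 over the 46 genes and -0.01 over all probes, with 24 genes above and 22 below 0. The median over the 46 genes was 0.09 in D7E over WTA and 0.07 in D7E over WTD, with 28 and 29 genes above 0. On 11 genes all WTD arrays lay above both WTA arrays and on 9 all lay below, against 14% and 14.7% of all probes. D7E arrays lay above both WTA arrays on 5 genes and below on 4 (15.7% and 15.8% of all probes), and above all WTD arrays on 4 and below on 4 (7.52% and 6.7%). Between D7E and WTA no member probe was called, against 0.691% of all probes (0.377% higher and 0.314% lower). In that comparison 12 of 69 (17.4%) had an unadjusted p under 0.05, and 2345 of all probes (12.5%). Between D7E and WTD none was called either, against 0.0319% of all probes, all of them lower and 0% higher. There 9 of 69 (13%) had an unadjusted p under 0.05, and 1524 of all probes (8.1%). The comparisons of WTD and of D7E with WTA share both WTA arrays.

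**Figure D1:**
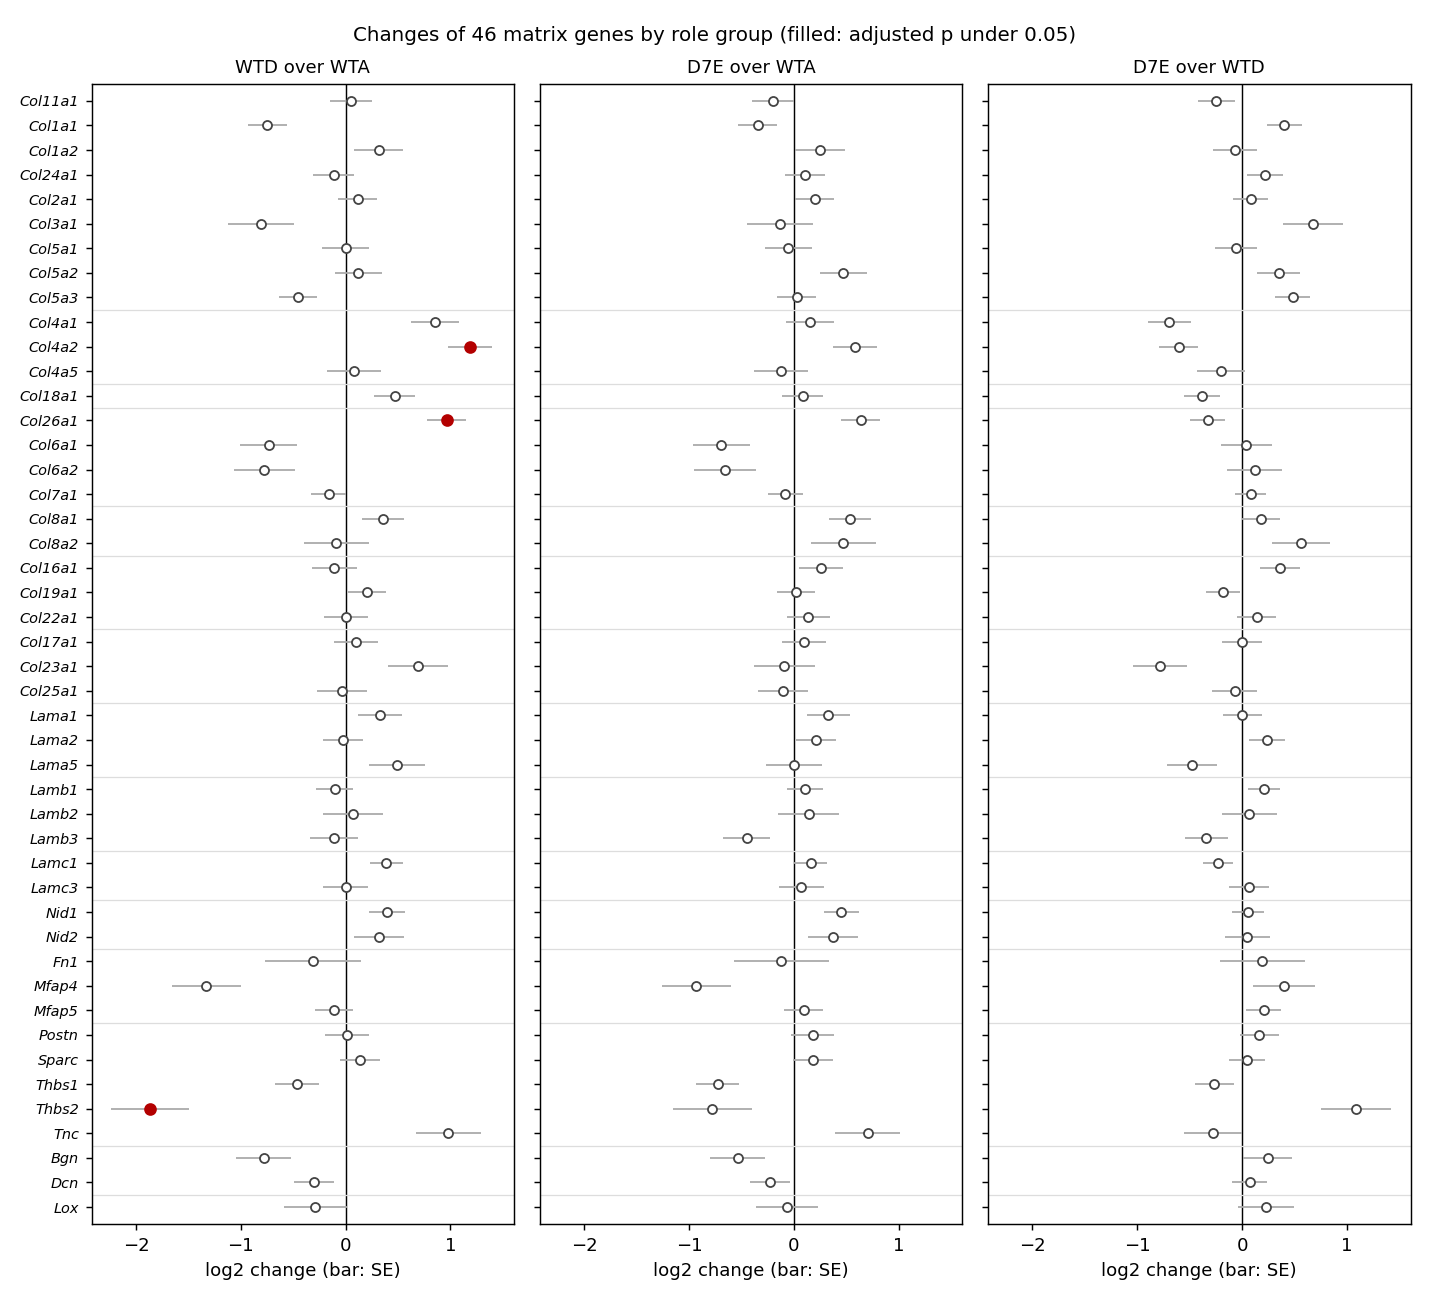
Log2 change (x axis, with its SE as a bar) of each of the 46 matrix genes past the filter (rows, grouped by role with grey lines between groups) for WTD over WTA, D7E over WTA and D7E over WTD. Filled points mark an adjusted p under 0.05: Col4a2 and Col26a1 lie right of 0 and Thbs2 left of it in WTD over WTA, and no point is filled in the other panels.

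The type IV collagens form the network of the basement membrane. Col4a1 and Col4a2 encode the pair of chains found together in most basement membranes, and the genes lie head to head on mouse chromosome 8, so that they share a promoter region. Their promoter windows are shown because both genes had their highest values in WTD, and that of Thbs2, which encodes a secreted glycoprotein that binds collagen and cell surface receptors, because it was the member gene that fell. Sequences are those of RefSeq on GRCm38.p6, with 250 bases before and 50 after the annotated start, with capitals for CCAAT (the CCAAT box), GGGCGG (the GC box) and TATAAA (the TATA box) on either strand, none of which overlap here. The windows are chr8:11312555-11312854 (+) for Col4a2, chr8:11312777-11313076 (-) for Col4a1 and chr17:14694213-14694512 (-) for Thbs2.
Col4a2: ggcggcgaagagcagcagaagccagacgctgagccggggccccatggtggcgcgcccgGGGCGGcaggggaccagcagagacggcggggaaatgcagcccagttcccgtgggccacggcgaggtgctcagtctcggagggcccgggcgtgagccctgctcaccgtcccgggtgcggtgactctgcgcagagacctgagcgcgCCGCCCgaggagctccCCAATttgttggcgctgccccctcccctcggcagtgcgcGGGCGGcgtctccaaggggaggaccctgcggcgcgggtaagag
Col4a1: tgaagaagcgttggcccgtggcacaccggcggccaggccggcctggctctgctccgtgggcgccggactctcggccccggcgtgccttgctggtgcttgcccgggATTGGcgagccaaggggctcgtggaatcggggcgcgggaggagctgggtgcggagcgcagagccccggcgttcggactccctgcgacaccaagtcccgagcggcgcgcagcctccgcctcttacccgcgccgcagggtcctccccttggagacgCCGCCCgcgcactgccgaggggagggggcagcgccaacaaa
Thbs2: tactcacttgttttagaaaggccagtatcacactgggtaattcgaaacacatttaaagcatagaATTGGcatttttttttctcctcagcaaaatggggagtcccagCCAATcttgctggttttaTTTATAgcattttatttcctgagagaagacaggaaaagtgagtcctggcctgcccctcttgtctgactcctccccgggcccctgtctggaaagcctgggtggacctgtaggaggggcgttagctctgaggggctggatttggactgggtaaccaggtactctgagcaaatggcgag
The annotated starts of Col4a1 and Col4a2 lie 21 bases apart on opposite strands, and their windows overlap by 78 bases. The Col4a2 window held 3 GC boxes and 1 CCAAT box, that of Col4a1 1 of each, and that of Thbs2 2 CCAAT boxes and 1 TATA box. The GC box of Col4a1 is the same site as the last GC box of Col4a2, after both starts. The TATA box motif of Thbs2 lies on the reverse strand and begins 126 bases before the start. Over the 32851 windows of all genes 37.4% held a CCAAT box, 35.7% a GC box and 13.6% a TATA box. Windows were found for 31 of the 46 genes, and of these 36 windows 15 held a CCAAT box, 23 a GC box and 6 a TATA box. Col26a1, Col1a1, Fn1 and Thbs1 had no window.

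Col4a2 read 9.40, 9.43 and 8.78 on the WTD arrays, 8.82, 8.49 and 8.48 on the D7E arrays and 8.06 and 7.97 on the WTA arrays. All WTD and all D7E arrays lay above both WTA arrays, and WTD replicate 3 lay among the D7E arrays. The gene rose in WTD over WTA by log2 1.18 ± 0.21 (SE; 2.27-fold, adjusted p = 0.0169). In D7E it read 0.58 ± 0.21 over WTA (adjusted p = 0.261) and -0.60 ± 0.19 over WTD (adjusted p = 0.428). With arrays centred on their medians, Col4a2 read 0.111 in D7E over WTD, where the median of all probes was 0.401. In D7E over WTA that centring put the median of all probes at 0.261. Values with that centring given below stand beside these medians. Col4a1 read 9.57, 9.43 and 9.06 on the WTD arrays, 8.78, 8.49 and 8.71 on the D7E arrays and 8.12 and 8.89 on the WTA arrays. Its WTD arrays stood above all others, while the WTA arrays lay on both sides of the D7E arrays. The changes were 0.85 ± 0.23 in WTD over WTA (adjusted p = 0.097), 0.16 ± 0.23 in D7E over WTA (adjusted p = 0.852) and -0.69 ± 0.20 in D7E over WTD (adjusted p = 0.406, and 0.0302 on the log2 scale with arrays centred on their medians). Without WTD replicate 3 the WTD over WTA change of Col4a1 was 0.999 and passed (adjusted p = 0.0458), and without WTA replicate 1 it was 0.47 (adjusted p = 0.547). Col4a5, a chain of specialised basement membranes, showed groups that overlapped, with levels of 5.19 to 6.22 in WTD, 5.29 to 5.63 in D7E and 5.37 to 5.80 in WTA. Col4a3, Col4a4 and Col4a6 did not pass the filter. The pericyte markers Mcam and Rgs5 were also higher on all WTD arrays than on both WTA arrays. Acta2, Smtn and Notch3 of the same list read 0.15, 0.10 and 0.27 in WTD over WTA, with groups that overlapped. Of the 7 measured markers of that list 1, either Pdgfrb or Cspg4, read below 0, at -0.18, and the median was 0.15. The part of pericytes in these results was not tested.

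Col18a1 encodes a basement membrane proteoglycan collagen whose end fragment is endostatin. It read 10.82, 10.57 and 10.53 in WTD, 10.19, 10.20 and 10.39 in D7E and 9.88 and 10.46 in WTA. The WTD arrays lay above all others and the D7E arrays between the WTA arrays. The changes were 0.47 ± 0.20 in WTD over WTA (adjusted p = 0.288), 0.09 ± 0.20 in D7E over WTA (adjusted p = 0.916) and -0.38 ± 0.17 in D7E over WTD (adjusted p = 0.61, and 0.370 on the log2 scale with arrays centred on their medians). A second, dimmer probe of Col18a1 read 0.15 in WTD over WTA, with groups that overlapped, and pointed the other way in D7E over WTA, at -0.19.

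**Figure D2:**
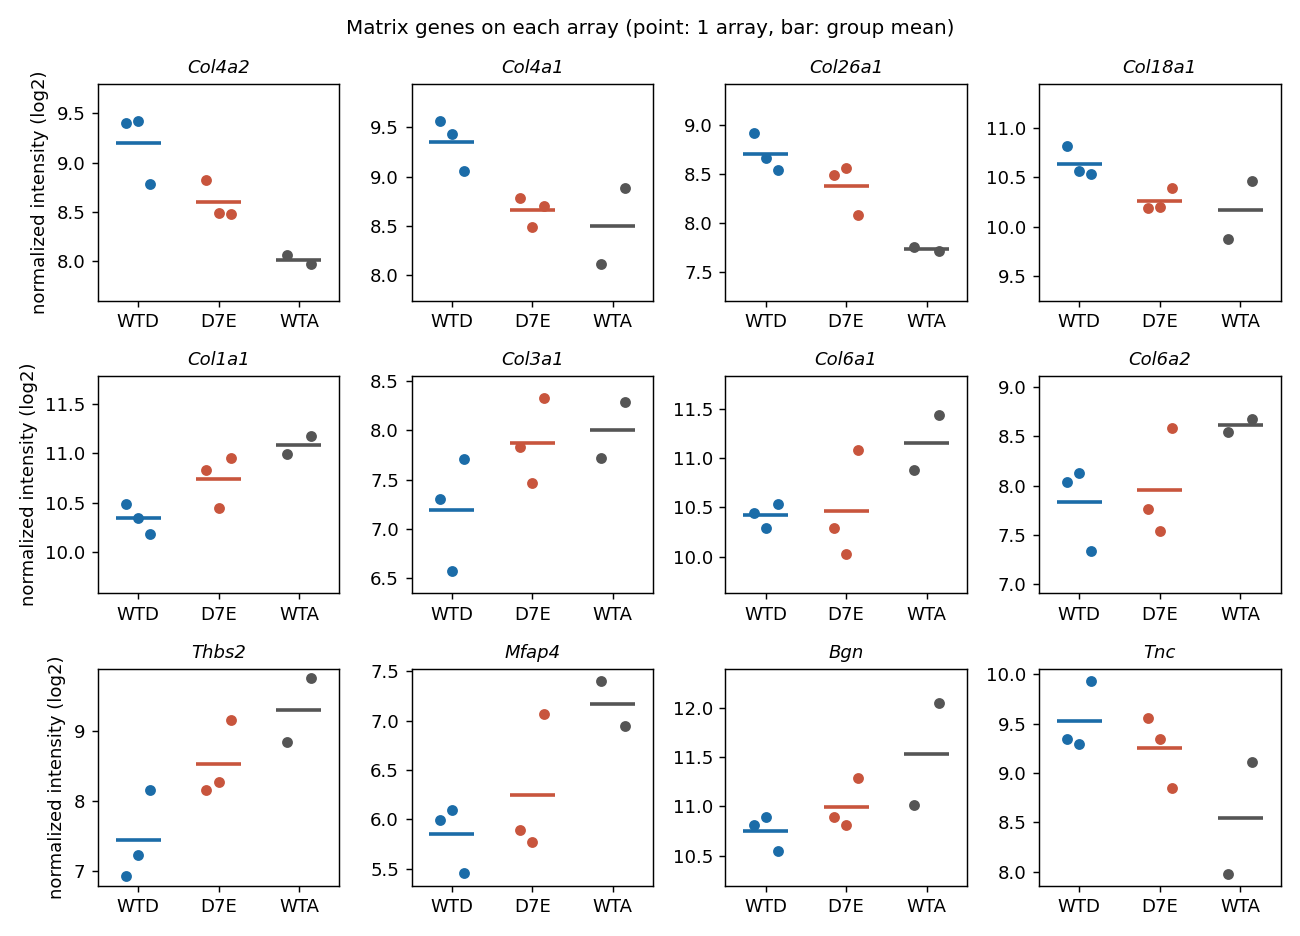
Normalized log2 intensity (y axis, each panel with its own range) of 12 matrix genes on each array, with 1 point per array and a bar at the group mean, for WTD, D7E and WTA. Col4a2 and Col26a1 have all WTD and D7E arrays above both WTA arrays, and the WTD arrays of Thbs2 lie between 6.93 and 8.16, below both WTA arrays.

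Laminins are trimers of an alpha, a beta and a gamma chain that anchor the basement membrane to receptors of the muscle cell. None of the 8 measured laminin genes was called in a comparison, and their median log2 change in WTD over WTA was 0.04. Lamc1, the gamma chain of most laminins, read 8.42, 8.46 and 8.56 in WTD, 8.33, 8.29 and 8.14 in D7E and 8.15 and 8.03 in WTA. The WTD arrays were the highest, by a small margin (log2 0.39 ± 0.16 over WTA, adjusted p = 0.27), and D7E differed by 0.16 ± 0.16 from WTA (adjusted p = 0.756) and by -0.23 ± 0.14 from WTD (adjusted p = 0.712, and 0.492 on the log2 scale with arrays centred on their medians). A second probe of Lamc1 pointed the other way, at -0.23 in WTD over WTA and -0.22 in D7E over WTA. Lama5, an alpha chain of many adult basement membranes, read 7.09, 6.83 and 7.12 in WTD, 6.84, 6.76 and 5.996 in D7E and 6.90 and 6.16 in WTA. The groups overlapped, with 1 low array each in D7E and WTA, and the change was 0.49 ± 0.27 in WTD over WTA (adjusted p = 0.451) and -0.48 ± 0.24 in D7E over WTD (adjusted p = 0.651, and 0.142 on the log2 scale with arrays centred on their medians).

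Lama2, the alpha chain of the muscle fibre's basement membrane, read 5.01 to 5.12 in WTD, 4.92 to 5.52 in D7E and 5.09 and 5.12 in WTA, so that the groups overlapped. Lama1, an alpha chain of embryonic basement membranes, was above background on 2 WTD arrays, 2 D7E arrays and no WTA array. It read 4.54, 5.03 and 4.43 in D7E and 4.405 and 4.27 in WTA (log2 0.33 ± 0.21 in D7E over WTA, adjusted p = 0.581). Lamb2, the beta chain enriched at the neuromuscular junction, read 8.62, 8.87 and 7.62 in WTD, 8.24, 8.53 and 8.55 in D7E and 8.40 and 8.19 in WTA. WTD replicate 3 was the lowest of the 8 arrays for this gene and the other WTD arrays the highest. Lamb3, a beta chain of epithelial laminin, read 6.90, 6.82 and 6.07 in WTD, 6.19, 6.19 and 6.38 in D7E and 6.63 and 6.77 in WTA. All D7E arrays lay below both WTA arrays (log2 -0.45 ± 0.23, adjusted p = 0.453), and D7E over WTD was -0.34 ± 0.20 (adjusted p = 0.707, and 0.278 on the log2 scale with arrays centred on their medians). Lamb1, a widely used beta chain, was above background on 1 D7E and 1 WTA array and on no WTD array.

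Nidogens link the laminin and collagen networks. Nid1 read 5.90, 5.65 and 5.54 in WTD, 5.69, 5.80 and 5.76 in D7E and 5.18 and 5.42 in WTA. All WTD and all D7E arrays lay above both WTA arrays, by log2 0.40 ± 0.17 in WTD (adjusted p = 0.304) and 0.45 ± 0.17 in D7E (adjusted p = 0.273). Nid2 read 7.84, 7.83 and 7.95 in WTD, 8.18, 8.25 and 7.34 in D7E and 7.62 and 7.49 in WTA. Its WTD arrays lay above both WTA arrays, while D7E replicate 3 was the lowest of all and the other D7E arrays the highest.

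The fibrillar collagens make the load-bearing fibres of the interstitial matrix, and none of the 9 measured genes was called. Col1a1, which encodes the main chain of type I collagen, read 10.49, 10.35 and 10.19 in WTD, 10.83, 10.45 and 10.95 in D7E and 10.997 and 11.18 in WTA. Both WTA arrays stood above all others, and the WTD arrays were the lowest, with D7E replicate 2 among them. The change was -0.75 ± 0.19 in WTD over WTA (adjusted p = 0.0726), -0.35 ± 0.19 in D7E over WTA (adjusted p = 0.489, and 0.235 on the log2 scale with arrays centred on their medians) and 0.40 ± 0.17 in D7E over WTD (adjusted p = 0.549). In the authors' own normalized values the WTD over WTA change of Col1a1 was -0.716 and passed (adjusted p = 0.0486). Col1a2, the partner chain in the type I trimer, read 8.10, 7.44 and 8.06 in WTD, 7.91, 7.66 and 7.85 in D7E and 7.23 and 7.88 in WTA, with groups that overlapped throughout. Col3a1, the chain of the thinner type III fibres, read 7.31, 6.57 and 7.71 in WTD, 7.83, 7.46 and 8.33 in D7E and 7.72 and 8.29 in WTA. The WTD arrays lay below both WTA arrays (-0.81 ± 0.32, adjusted p = 0.259) and overlapped with D7E (0.68 ± 0.28 in D7E over WTD, adjusted p = 0.557, with a dim second probe at -0.11).

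The type V collagens start and size type I fibres. Col5a1 spanned 11.10 to 11.47 in WTD, 11.12 to 11.38 in D7E and 10.93 to 11.73 in WTA, where its 2 arrays enclosed all others. Col5a2 read 5.58, 5.24 and 5.57 in WTD, 5.93, 5.66 and 5.84 in D7E and 4.93 and 5.75 in WTA. The D7E arrays lay above all WTD arrays and overlapped with WTA (0.47 ± 0.23 in D7E over WTA, adjusted p = 0.42). Col5a3 was above background on 1 of 3 WTD arrays, all 3 D7E arrays and both WTA arrays, with levels of 4.14 to 4.47 in WTD, 4.64 to 4.96 in D7E and 4.61 and 4.97 in WTA. D7E over WTD was 0.48 ± 0.16 (adjusted p = 0.47), and all D7E arrays lay above all WTD arrays.

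Type VI collagen forms beaded filaments that tie the basement membrane to the interstitial matrix. Col6a1 read 10.45, 10.29 and 10.54 in WTD, 10.29, 10.02 and 11.09 in D7E and 10.88 and 11.44 in WTA. Col6a2 read 8.04, 8.13 and 7.34 in WTD, 7.76, 7.54 and 8.58 in D7E and 8.55 and 8.68 in WTA. For both chains all WTD arrays lay below both WTA arrays, and D7E replicate 3 lay between the WTA arrays while the other D7E arrays lay below both WTA arrays. WTD over WTA was -0.73 ± 0.27 for Col6a1 (adjusted p = 0.231) and -0.78 ± 0.29 for Col6a2 (adjusted p = 0.245), and D7E over WTA was -0.69 ± 0.27 (adjusted p = 0.301) for Col6a1 and -0.66 ± 0.29 (adjusted p = 0.382) for Col6a2. Without D7E replicate 3 the D7E over WTA changes were -0.995 for Col6a1 (adjusted p = 0.0559) and -0.964 for Col6a2 (adjusted p = 0.101). The fibroblast marker Dpt, like Col1a1, Col3a1, Col6a1 and Col6a2, was lower on all WTD arrays than on both WTA arrays. These genes also had their highest D7E value in replicate 3. The other measured fibroblast markers read -0.005 (Pdgfra), -0.16 (Pdgfrl) and 0.02 (Pi16) in WTD over WTA, with groups that overlapped. The part of fibroblasts in these results was not tested.

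Col26a1 encodes a little-studied collagen first described in testis and ovary of mice. It read 8.91, 8.66 and 8.54 in WTD, 8.49, 8.56 and 8.08 in D7E and 7.76 and 7.72 in WTA. All WTD and all D7E arrays lay above both WTA arrays, which were close together. The gene rose in WTD over WTA by log2 0.96 ± 0.19 (SE; 1.95-fold, adjusted p = 0.0265), and D7E read 0.64 ± 0.19 over WTA (adjusted p = 0.17) and -0.33 ± 0.17 over WTD (adjusted p = 0.663, and 0.395 on the log2 scale with arrays centred on their medians). Among the remaining collagens, Col8a1, a short chain network collagen of vessel walls and the eye, had all WTD and all D7E arrays above both WTA arrays, at 7.67 to 7.94 in WTD, 7.60 to 8.21 in D7E and 7.30 and 7.59 in WTA (0.36 ± 0.20 in WTD over WTA and 0.54 ± 0.20 in D7E over WTA, adjusted p = 0.473 and 0.283). Its partner Col8a2 read 5.91, 5.72 and 5.85 in WTD, 6.02, 5.93 and 7.22 in D7E and 5.71 and 6.13 in WTA. D7E replicate 3 stood apart, so that D7E over WTD was 0.56 ± 0.28 (adjusted p = 0.648) with that array and 0.148 without it.

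Col23a1, a collagen that spans the cell membrane, read 5.51, 5.72 and 5.96 in WTD, 5.30, 5.28 and 4.27 in D7E and 5.30 and 4.78 in WTA. The WTD arrays lay above all others and D7E replicate 3 was the lowest. The changes were 0.69 ± 0.29 in WTD over WTA (adjusted p = 0.287) and -0.78 ± 0.26 in D7E over WTD (adjusted p = 0.458). Col16a1, a collagen that associates with fibrils, had levels of 5.92 to 6.41 in WTD, 6.33 to 6.91 in D7E and 6.18 and 6.37 in WTA, with 0.26 ± 0.21 in D7E over WTA and 0.37 ± 0.19 in D7E over WTD (adjusted p = 0.7 and 0.666). Col19a1, another fibril-associated collagen, was above background on 2 WTD arrays only. It read 4.95, 4.47 and 4.43 in WTD and 4.46 and 4.36 in WTA, with groups that overlapped (0.20 ± 0.18, adjusted p = 0.685). Of the other collagens, Col2a1, Col7a1, Col11a1, Col22a1, Col24a1 and Col25a1 were measured and not called, and likewise the laminin chain Lamc3. Col17a1 encodes a membrane collagen of epithelial cells, and its brightest probe was above background on 1 WTD and 1 D7E array and on no WTA array, while a second probe was so on 1 D7E and 1 WTA array.

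Thbs2 had the largest change of the 46 genes in WTD over WTA. It read 6.93, 7.23 and 8.16 on the WTD arrays, 8.16, 8.27 and 9.16 on the D7E arrays and 8.85 and 9.76 on the WTA arrays. All WTD arrays lay below both WTA arrays, and the D7E arrays overlapped with both groups. Thbs2 fell in WTD, with a log2 change of -1.86 ± 0.38 (SE) over WTA (3.64-fold lower, adjusted p = 0.0302), while D7E read -0.78 ± 0.38 over WTA (adjusted p = 0.424) and 1.09 ± 0.34 over WTD (adjusted p = 0.426). Thbs1, its relative that activates TGF-beta, was low, at 4.70, 4.76 and 5.19 in WTD, 4.88, 4.36 and 4.62 in D7E and 5.18 and 5.51 in WTA. All D7E arrays lay below both WTA arrays (-0.73 ± 0.21, adjusted p = 0.156).

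The calls for Col4a2, Col26a1 and Thbs2 were lost when certain single arrays were left out. Calls over all probes fell as well, from 298 to 3 without WTA replicate 1 and to 86 without WTA replicate 2. They fell to 65 without WTD replicate 1 and to 131 without WTD replicate 2. Without WTA replicate 1, WTA replicate 2, WTD replicate 1 or WTD replicate 2 no member probe was called, with log2 changes of 1.08 to 1.23 for Col4a2, 0.863 to 0.992 for Col26a1 and -2.32 to -1.41 for Thbs2 and adjusted p between 0.0543 and 0.192. Without WTD replicate 3 all 3 passed, at 1.40, 1.05 and -2.22 (adjusted p = 0.00269, 0.0193 and 0.00599).

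Tnc encodes tenascin-C, a matrix glycoprotein that is high in developing and regenerating tissue. Its brightest probe read 9.35, 9.29 and 9.94 in WTD, 9.55, 9.35 and 8.85 in D7E and 7.98 and 9.11 in WTA. The WTD arrays lay above both WTA arrays, which were far apart, and the D7E arrays overlapped with both groups (0.98 ± 0.31 in WTD over WTA and 0.71 ± 0.31 in D7E over WTA, adjusted p = 0.16 and 0.372). A second bright probe gave 0.98 in WTD over WTA (adjusted p = 0.184). A dim probe of Tnc read 5.09, 5.52 and 5.41 in WTD, 4.82, 5.10 and 4.76 in D7E and 4.42 and 4.57 in WTA, where it was above background on 1 of the 2 arrays. This dim probe rose in WTD over WTA by 0.84 ± 0.18 (adjusted p = 0.0409), but the change was 0.235 without background correction (adjusted p = 0.116), and it was called under 3 of 17 alternatives. The remaining probe of Tnc had a log2 change of -0.03.

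Sparc encodes osteonectin, a collagen-binding protein of the matrix. It spanned 11.72 to 12.07 in WTD, 11.92 to 12.05 in D7E and 11.51 to 12.06 in WTA, with groups that overlapped. Postn, which encodes periostin, was above background on 1 WTD and 1 D7E array and on no WTA array. Fn1 encodes fibronectin, the glycoprotein that myoblasts adhere to. It read 8.25, 7.74 and 9.25 in WTD, 8.53, 8.60 and 8.69 in D7E and 7.82 and 9.63 in WTA. The WTA arrays enclosed all others except WTD replicate 2, so that the groups overlapped. The other 3 probes of Fn1 were dim and pointed the other way in D7E over WTD.

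Mfap4 encodes a glycoprotein of elastic microfibrils. It read 5.996, 6.09 and 5.46 in WTD, 5.89, 5.77 and 7.07 in D7E and 7.40 and 6.95 in WTA. All WTD arrays lay below both WTA arrays, and D7E replicate 3 lay between the WTA arrays while the other D7E arrays lay within the range of WTD. The change was -1.33 ± 0.33 in WTD over WTA (adjusted p = 0.0745) and -0.93 ± 0.33 in D7E over WTA (adjusted p = 0.254). Without D7E replicate 3 Mfap4 was called in both comparisons, at -1.32 in WTD (adjusted p = 0.0118) and -1.33 in D7E (adjusted p = 0.0235), and in a fit of WTD and WTA alone it was -1.27 (adjusted p = 0.0205). Without background correction it was -0.689 in WTD over WTA (adjusted p = 0.135).

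Bgn encodes biglycan, a small proteoglycan that binds collagen and the dystrophin-associated complex. It read 10.81, 10.89 and 10.54 in WTD, 10.89, 10.81 and 11.28 in D7E and 11.02 and 12.05 in WTA. The WTD arrays lay below both WTA arrays, with WTA replicate 2 far above all others (-0.78 ± 0.26 in WTD over WTA, adjusted p = 0.185, and -0.266 without that array). D7E over WTA was -0.54 ± 0.26 (adjusted p = 0.433, and 0.0539 on the log2 scale with arrays centred on their medians). Dcn encodes decorin, and its brightest probe was above background on no WTD array, 1 D7E array and 1 WTA array. Lox encodes lysyl oxidase, which crosslinks collagen and elastin. It read 9.26, 8.70 and 9.58 in WTD, 9.20, 9.10 and 9.91 in D7E and 9.12 and 9.82 in WTA, and the groups overlapped.

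Matrix genes differed between arrays of the same group more widely than probes at large. This comparison was added after the values were seen and has no test. The median SD within groups was 0.265 over the 46 genes and 0.201 over all probes. WTA replicate 2 exceeded WTA replicate 1 by more than 0.5 on the log2 scale for 14 of the 46 genes (30.4%), against 7.33% of all probes, and fell short by as much for 3. With a mean log2 level of at least 7, where both sets are clear of background, this held for 12 of 21 genes and for 7.41% of 5530 probes. The difference was 1.81 for Fn1, 1.13 for Tnc, 1.03 for Bgn and 0.90 for Thbs2. D7E replicate 3 exceeded the mean of the other D7E arrays by more than 0.5 for 11 genes (23.9%, against 3.94% of all probes), led by Col8a2 and Mfap4 at 1.24 each, Thbs2 at 0.94 and Col6a2 and Col6a1 at 0.93 each, and fell short by as much for 5 genes (10.9%, against 4.09%), such as Col23a1 by 1.02 and Nid2 by 0.88. WTD replicate 3 exceeded the mean of the other WTD arrays by as much for 6 genes (13%, against 7.36%), with Fn1 at 1.26 and Thbs2 at 1.08, and fell short for 7 (15.2%, against 5.29%), with Lamb2 at -1.13. On Pabpn1 D7E replicate 3 was also the highest of the D7E arrays. The part of these differences between arrays in the results above was not tested.

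**Figure D3:**
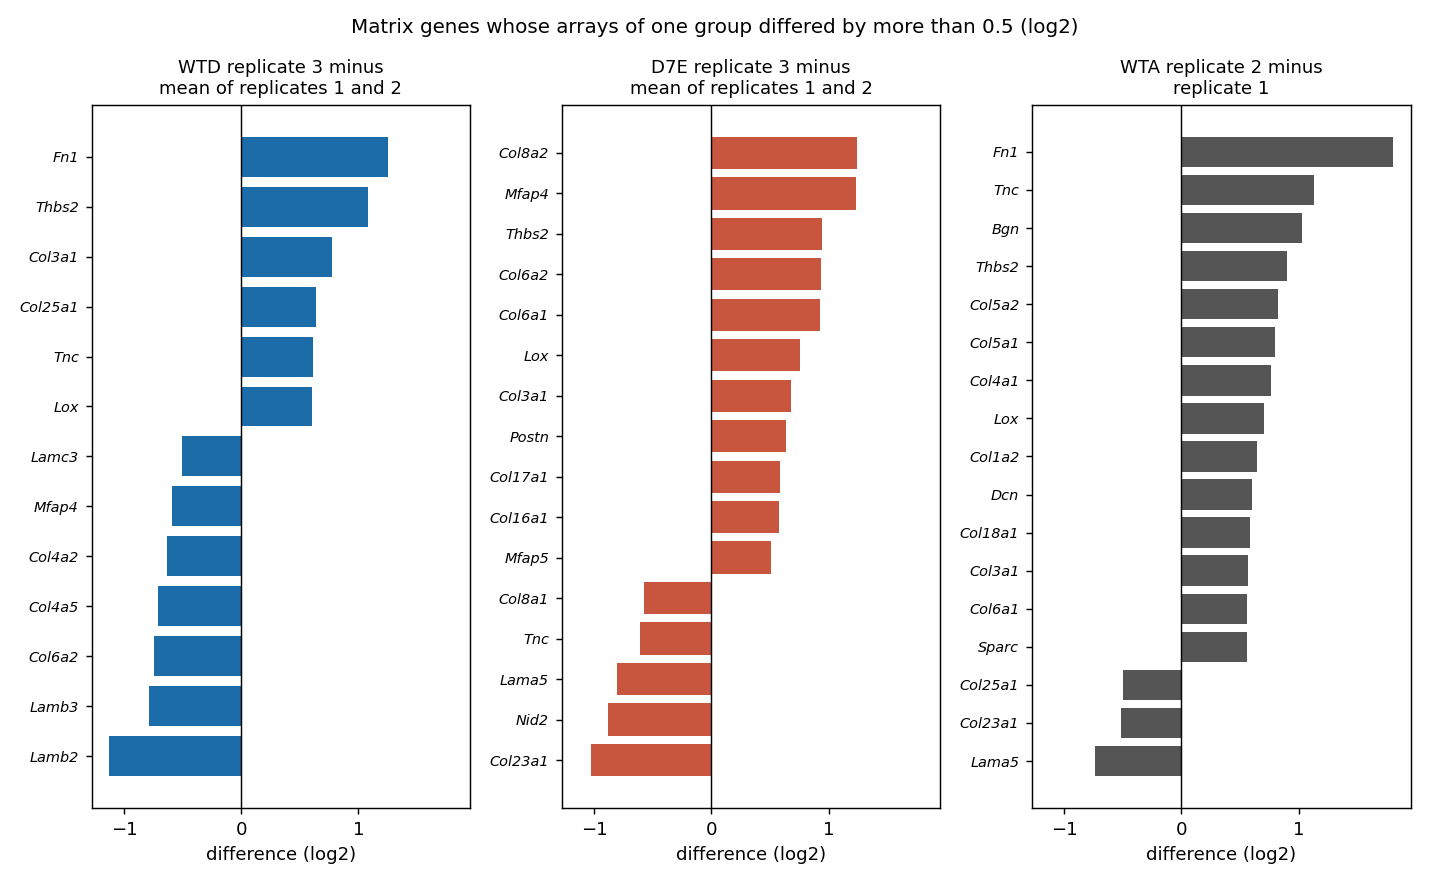
Difference in log2 intensity (x axis) between arrays of 1 group for the matrix genes where it exceeded 0.5 in size, with 1 bar per gene: WTD replicate 3 and D7E replicate 3 minus the mean of the other replicates of their group, and WTA replicate 2 minus replicate 1. WTA replicate 2 is higher for 14 of 17 such genes, led by Fn1 at 1.81.

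The enzymes and chaperones that fold and secrete collagen were measured on 19 of 22 listed genes on the array, and none was called in any comparison. Their median log2 change was -0.05 in WTD over WTA, -0.18 in D7E over WTA and -0.14 in D7E over WTD, beside -0.01, 0.00 and 0.01 over all probes. Of other crosslinking enzymes Loxl1 and Tgm2 were measured. Tgm2, a transglutaminase that crosslinks matrix and cell proteins, read 8.26, 8.40 and 8.81 in WTD, 8.88, 8.84 and 9.16 in D7E and 9.36 and 9.51 in WTA. All WTD arrays lay below all D7E arrays and these below both WTA arrays. Tgm2 fell in WTD over WTA by 0.95 on the log2 scale, with an SE of 0.19 (adjusted p = 0.0312, called under 8 of 17 alternatives), and read -0.48 in D7E over WTA (adjusted p = 0.316, and 0.0578 on the log2 scale with arrays centred on their medians).

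None of the 22 measured matrix receptors was called in a comparison, integrins, syndecans and dystroglycan included, with a median log2 change of 0.10 in WTD over WTA, 0.04 in D7E over WTA and -0.08 in D7E over WTD. Of 23 other measured matrix genes 1 rose in WTD over WTA and 1 fell in D7E over WTA. Ccn2, which encodes a secreted factor that induces matrix genes in fibroblasts, read 10.42, 10.27 and 9.96 in WTD, 9.94, 10.06 and 9.32 in D7E and 8.46 and 8.96 in WTA. All WTD and all D7E arrays lay above both WTA arrays. Ccn2 rose in WTD over WTA by 1.501 ± 0.24 (adjusted p = 0.00941), with 1.26 without WTA replicate 1 and 1.40 without WTD replicate 1, where the call was lost (adjusted p = 0.148 and 0.0559), and read 1.06 ± 0.24 in D7E over WTA (adjusted p = 0.0708). Spon2, which encodes a secreted protein of the spondin family, read 7.58, 7.63 and 7.22 in WTD, 6.82, 7.06 and 7.09 in D7E and 7.81 and 7.95 in WTA. The D7E arrays lay below all others, and Spon2 fell in D7E over WTA by 0.89 on the log2 scale, with an SE of 0.18 (adjusted p = 0.0456, called under 6 of 16 alternatives).

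**Figure D4:**
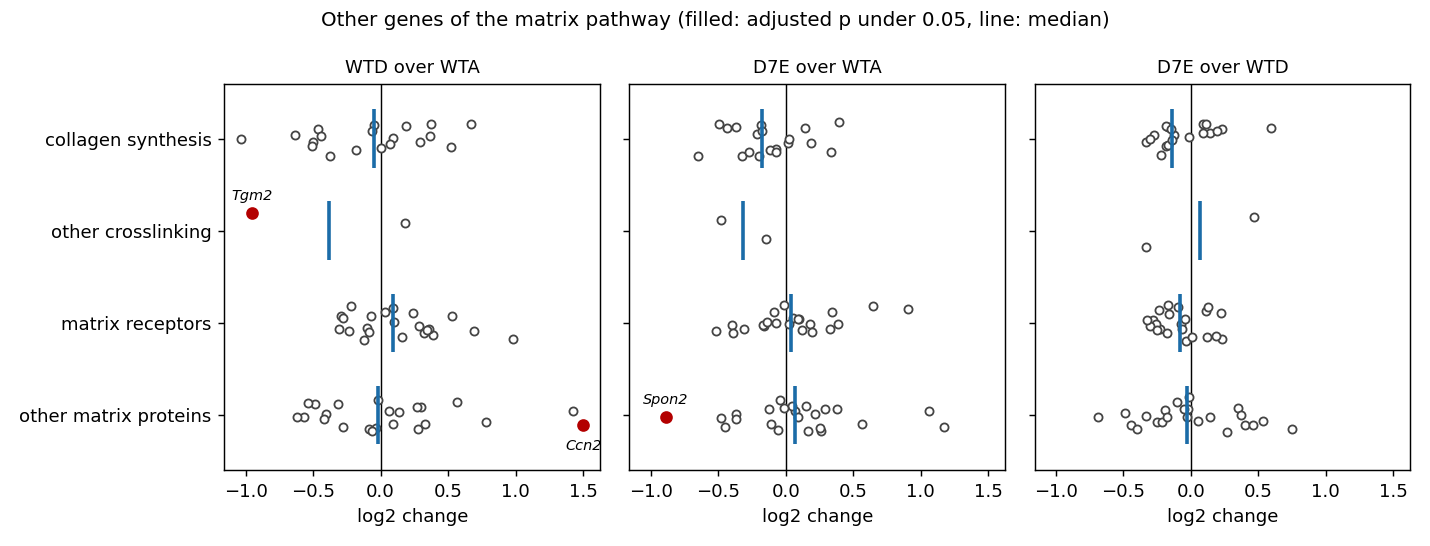
Log2 change (x axis) of the measured genes of collagen synthesis, other crosslinking enzymes, matrix receptors and other matrix proteins (rows, 1 point per gene, with a line at the median) in WTD over WTA, D7E over WTA and D7E over WTD. Filled points mark an adjusted p under 0.05: Tgm2 and Ccn2 in WTD over WTA and Spon2 in D7E over WTA.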

How the data were processed

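The arrays were read as 2 raw tables and the authors' value table. The raw signals are intensities on a linear scale and the detection p-values stand beside them, per the file headers. The authors also deposited log2 intensities, which match the raw ranks and share a median of 6.45. The sources used here do not name the software behind these values. WTA replicate 3 was not analysed here. Probe symbols came from GEO's platform annotation (34885 probes with 1 symbol, 18 with several, 10378 with none).

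WTD signals stood in another row order than the probe IDs, which was restored by matching the pair of WTA ranks of all 45281 probes. The deposited detection p of WTD replicate 2, which took no part in this, then had a rank correlation of -0.996 with its signal, against 0.00216 before. Those of WTD replicates 1 and 3 fitted no array (-0.735 and -0.711 at most) and were estimated from 23132 background probes. The 2 WTA arrays stand in both raw tables with identical signals and were counted once.

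Signals were normalized over 8 arrays with neqc (offset 16) and tested two-sided with lmFit and eBayes in limma 3.58.1 under R 4.3.3, with Benjamini-Hochberg adjustment over 18815 probes. Figures used Python 3.11.15 and matplotlib 3.10.9. The test was tried on simulated data. Genes named are those called, 26 fixed matrix genes where measured, and the gene with the smallest p per role group and comparison. Levels of Col4a5 and Col5a1 were added after the data were seen. The members and lists were chosen with earlier results of these data known. The number of arrays limits the precision. Replicate numbers did not pair the arrays (correlations of same-numbered deviations from -0.278 to 0.152). Between differently numbered arrays the correlations reached 0.404 (WTD replicate 3 with WTA replicate 2) and -0.404 (WTD replicate 3 with WTA replicate 1). With 2 WTA arrays the deviations of 1 mirror those of the other. An array's correlations with them thus differ in sign only, the same-numbered ones included. File headers name neither slides nor dates, and no batch could be tested.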

Additional observations from a re-analysis of the deposited data

How the results depend on the processing

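Beside the values in the text, 17 alternatives were run, 1 of them (only WTD replicate 2 kept of WTD) chosen after seeing the data. Of 1236 changes of named genes, 1138 kept their direction and side of the threshold, 58 lost a call, 8 gained one and 32 changed sign, none of these while called.
In WTD over WTA, the called member probes (4) became 0 with arrays centred on their medians and with no filter on dim probes, 2 without background correction and 2 with only WTD replicate 2 kept, and lay between 0 and 6 when each array was left out. All called probes (298) became 0 with median centring and 62 without the filter, and lay between 3 and 443 with arrays left out. At an unadjusted p under 0.05 median centring gave 5 member probes and 317 of all. With that centring the median of all probes was -0.086 in WTD over WTA, 0.261 in D7E over WTA and 0.401 in D7E over WTD, against -0.013, -0.002 and 0.010 without it.
In D7E over WTA, 0 member probes were called under every alternative except without D7E replicate 3, where Mfap4 was called (range 0 to 1). All called probes (130) were 271 without background correction, 276 in the authors' values, 74 in a fit of the 2 groups alone, 60 with the replicate block, 59 without the filter and 0 with median centring, and 0 to 221 with arrays left out. In D7E over WTD the 6 called probes became 2 without background correction, 2 in the authors' values, 1 in a fit of the 2 groups alone, 58 with only WTD replicate 2 kept and 0 with median centring or without the filter, and lay between 0 and 80 with arrays left out.
With the replicate block 328, 60 and 8 probes were called in WTD over WTA, D7E over WTA and D7E over WTD, and 4, 0 and 0 members, so the block changed no member's call. Of the other matrix genes, in D7E over WTA, Spon2 lost its call under the block (-0.848, adjusted p = 0.109) and Ccn2 gained one (1.24, adjusted p = 0.0378). Thbs2 lost its call without background correction (-1.45, adjusted p = 0.0834) and in the authors' values (-1.53, adjusted p = 0.0737).
None of the following sign changes was of a called value. Median centring gave, in D7E over WTA, 0.0539 for Bgn, 0.235 for Col1a1, 0.319 for Col3a1, 0.467 for Lox and 0.0578 for Tgm2, and, in D7E over WTD, 0.370 for Col18a1, 0.395 for Col26a1, 0.0302 for Col4a1, 0.111 for Col4a2, 0.142 for Lama5, 0.278 for Lamb3, 0.492 for Lamc1, 0.469 for Tnc, 0.328 for Ccn2 and 0.191 for Spon2. With only WTD replicate 2 kept, Col6a2 read -0.175 in D7E over WTD. With arrays left out, Lox ranged from -0.640 to 0.0660 in WTD over WTA. In D7E over WTA, Lox ranged from -0.417 to 0.290, Col3a1 from -0.421 to 0.153, Col18a1 from -0.206 to 0.376 and Col4a1 from -0.227 to 0.540. In D7E over WTD, Col6a1 ranged from -0.266 to 0.264, Col6a2 from -0.189 to 0.331, Lox from -0.0267 to 0.427, Nid1 from -0.0227 to 0.159 and Mfap4 from -0.0164 to 0.624. With median centring the median of all probes was itself 0.261 in D7E over WTA and 0.401 in D7E over WTD. The cause of these changes was not tested.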
